A study of Drosophila melanogaster with 33 samples.

Results

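Oxidative phosphorylation is carried out by complexes I to V of the inner mitochondrial membrane, and most of their subunits are encoded by nuclear genes. The nuclear genes described here are those whose symbols begin with ND-, UQCR, COX and a digit, ATPsyn, or SdhA to SdhD, and whose level, scaled to 1000000 per library, reached 1 in at least 2 of 21 poly(A) libraries from early Drosophila embryos. Of 80 genes with such symbols, 67 met that level, among 16407 genes measured and 8618 tested. They comprised 33 of 40 matching genes of complex I, 6 of 6 of complex II, 6 of 8 of complex III, 9 of 11 of complex IV and 13 of 15 of complex V. Of the 67, 59 reached a level of 1 in all 21 libraries and ND-B15 in 20, and these 60 are called widely detected below. The other 7 reached it in fewer than 10 libraries.

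Complexes I and II pass electrons from NADH and succinate to ubiquinone, complex III passes them on to cytochrome c, and complex IV reduces oxygen. Complexes I, III and IV pump protons, and complex V, the ATP synthase, makes ATP as the protons flow back. A fly egg is loaded with maternal messenger RNA and mitochondria, so RNA of these genes is present before the embryo transcribes its own genome, which begins in earnest during the syncytial and cellular blastoderm stages.

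Oregon R embryos had been injected with 5-ethynyl uridine (5-EU), a uridine analog built into RNA made after injection, to which biotin can be attached. RNA bound by streptavidin (eluate), RNA left unbound (flow-through) and RNA before the pull-down (input) were sequenced at nuclear cycles 7 to 9 (NC 7-9), nuclear cycles 9 to 10 (NC 9-10), syncytial blastoderm and cellular blastoderm, and all groups, inputs included, came from injected embryos. The poly(A) set had 1 preparation at NC 7-9 and 2 at each later stage, all with 250 mM 5-EU except the second preparation at both blastoderm stages, which had 50 mM. The rRNA-depleted set had 1 preparation per stage, at 250 mM. Nothing in the labels says that preparations came from different embryo collections, so p-values measure the spread between preparations, which may be technical and at the blastoderm stages includes the change of dose.

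Levels are the deposited RPKM values with the 1 that they all carry taken off, scaled to 1000000 per library and then between libraries by the median of ratios. Differences are of log2(level + 1), and a gene is said to have risen or fallen, or to be called, where limma's adjusted p (Benjamini-Hochberg over all genes tested) was below 0.05. The reads behind a poly(A) library, estimated from the steps in its low values, ranged from 1.93 to 36.9 in units of 1000000. Summed levels of 5 early zygotic markers (sisA, zen, sna, eve and slam) were 119 in the NC 7-9 eluate, 177 to 508 at NC 9-10, 8940 to 12960 at syncytial and 14651 to 14810 at cellular blastoderm, against 99.6, 81.9 to 118, 542 to 552 and 2487 to 2746 in the inputs of the same stages. Summed levels of 4 maternal markers (bcd, nos, CycB and plu) in inputs were 2249, 2287 to 2575, 2549 to 2664 and 1242 to 1379 in the same order of stages. Of 4 markers of older tissues, the neural gene elav reached 113 and 23.7 in the cellular blastoderm eluates, the muscle gene Mhc at most 0.284, and Cpr49Aa was at 0 in all 21 poly(A) libraries. Summed levels of 4 pole cell markers (pgc, gcl, osk and vas) were 269 to 271 in the cellular blastoderm inputs and 1584 to 2025 in the NC 9-10 inputs, and those of 4 follicle cell markers were 0 in all but 1 of the 21 poly(A) libraries (0.591). In bulk RNA, fewer cells with a transcript and less of it per cell cannot be told apart.

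The members together held a smaller share of the summed level in eluates than in inputs of the poly(A) set. That sum also holds mitochondrially encoded genes, such as mt:CoIII, at 79549 in the first syncytial eluate and 11703 in its input. Their part in the shares was not tested. Their share of the summed level was 1.05% in the NC 7-9 eluate, 0.917% and 0.878% in the NC 9-10 eluates, 0.553% and 0.931% at syncytial blastoderm and 0.532% and 0.707% at cellular blastoderm. In the 7 inputs it lay between 1.20% and 1.85%, and in the 7 flow-throughs between 1.04% and 1.90%. Every eluate was below every input, while flow-throughs overlapped both.

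**Figure D1:**
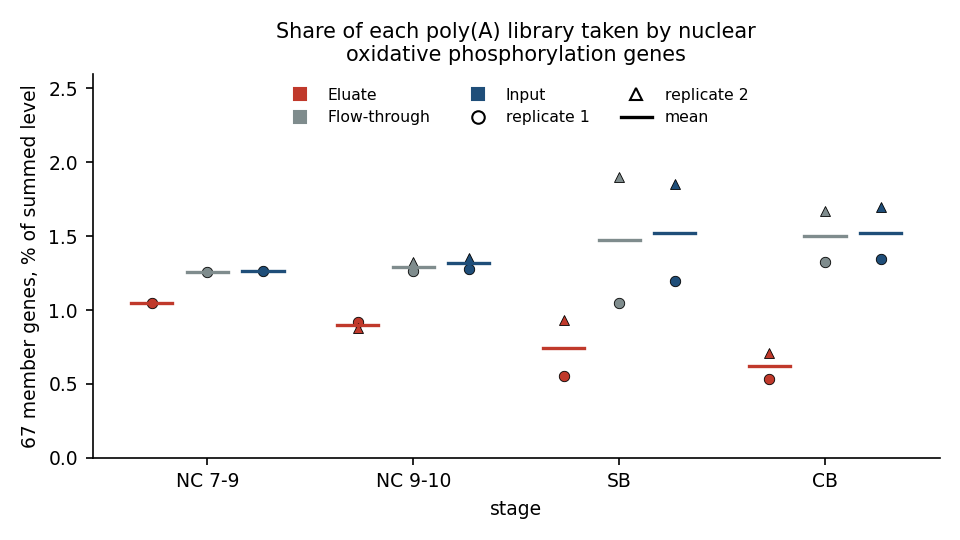
Share of the summed level held by the 67 nuclear oxidative phosphorylation genes in each poly(A) library (percent), by stage (SB, syncytial blastoderm; CB, cellular blastoderm), for eluate, flow-through and input; circles are first and triangles second preparations and bars are means. The poly(A) eluates lie between 0.532% and 1.05% and the poly(A) inputs between 1.20% and 1.85%, with no overlap.

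Complex V took the largest part of the inputs among the 5 complexes, 0.554% to 0.872% of the summed level over the 7 libraries, followed by complex I with 0.319% to 0.503% and complex IV with 0.185% to 0.303%. Complex III took 0.0667% to 0.130% and complex II, succinate dehydrogenase, 0.0326% to 0.0466%. The eluate ranges were 0.187% to 0.512% for complex V, 0.130% to 0.260% for complex I, 0.0807% to 0.171% for complex IV, 0.0330% to 0.0724% for complex III and 0.0208% to 0.0342% for complex II. The eluate range lay below the input range for complexes I, IV and V, and overlapped it for complexes II and III.

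A large part of the share of complex V came from 1 gene. ATPsynC, which encodes the subunit of the proton-driven rotor ring, had a mean input level of 2808, against a median of 290 among the widely detected genes of complex V. The next was ATPsynCF6, of the outer stalk, at 559, and the lowest ATPsyndelta, a central stalk subunit, at 144. In complex IV the mean input levels ran from 94.4 for COX7C to 579 for COX5A, with COX6B at 488, around a median of 431, and in complex I from 38.5 for ND-ASHI to 274 for ND-MLRQ, with the iron-sulfur subunit ND-20 at 252, around a median of 104. ND-MLRQ is counted here with complex I by its symbol, although its mammalian homolog has since been placed with complex IV. In complex III they ran from 27.5 for UQCR-6.4 to 276 for UQCR-Q, with the first core protein UQCR-C1 at 243, and in complex II from 13.2 for SdhC, a membrane anchor, to 154 for SdhB, the iron-sulfur subunit, with SdhA at 110.

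Relative to the median gene, most members stood higher in inputs of cellular blastoderm than in those of NC 9-10, while their joint share of the summed level overlapped between these stages (1.34% to 1.70% at cellular blastoderm, 1.28% to 1.36% at NC 9-10). Singly, 23 of 67 members rose, where 27.9% of all genes tested were called higher, and 3 fell, where 21.7% were called lower. The 23 include ND-51L1 of complex I, SdhBL of complex II, COX5BL of complex IV and ATPsynbetaL of complex V, none of them widely detected. COX5BL was counted at input levels of 0.868 and 0.579 at cellular blastoderm, against 0 and 0.134 at NC 9-10. The median difference of the members was 0.94, against 0.31 over all genes, and 52 members lay above 0 and 15 below. In complex I, 12 of 33 rose and 0 fell, with a median of 0.98. In complex II 2 rose and 1 fell of 6, in complex III 1 rose and 2 fell of 6, in complex IV 3 rose and 0 fell of 9, and in complex V 5 rose and 0 fell of 13. The medians of complexes II to V were 0.55, 0.49, 1.05 and 0.90.

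This count rests on the scaling and on single libraries. Scaled to the total alone, 7 members rose and 9 fell, with a member median of 0.42 beside an all-gene median of −0.05, and as deposited 5 rose and 14 fell, with medians of −0.22 and −0.76. The count of 23 became 10 without the first NC 9-10 input, 11 without the second, 19 without the first cellular blastoderm input and 6 without the second. In those fits the member median ran from 0.77 to 1.17, against 0.94 with all libraries. No fit with the preparation as a replicate block was made for this comparison of inputs. Its p-values treat the fractions of a preparation as independent and may be too small. Of the 60 widely detected members, 45 had their highest mean input level at cellular blastoderm, 7 at NC 7-9, 7 at NC 9-10 and 1 at syncytial blastoderm.

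UQCR-14, a small subunit of complex III that rose, had input levels of 373 and 414 at cellular blastoderm, against 114 and 129 at NC 9-10. Both later libraries were above both earlier ones, and the NC 7-9 input (127) and the first syncytial input (135) stood near the early values, with the second syncytial input at 220. The difference was 1.69 ± 0.42 (SE; limma adjusted p = 0.00583), and it was called whichever library was left out. All exonic bases of UQCR-14 lie opposite those of CG32576, whose input levels of 21.8 and 24.8 at cellular blastoderm and 9.07 and 12.7 at NC 9-10 were far lower. The strand setting of the counting is not given in the sources used here.

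ND-MWFE, a small membrane subunit needed to assemble mammalian complex I, had input levels of 227 and 615 at cellular blastoderm and 80.4 and 117 at NC 9-10. The groups did not overlap, but the cellular blastoderm preparations were far apart. The difference was 1.94 ± 0.60 (SE; limma adjusted p = 0.0189), which became 1.22 (adjusted p = 0.179) without the second cellular blastoderm input, 1.67 (adjusted p = 0.108) without the first NC 9-10 input and 1.39 (adjusted p = 0.077) scaled to the total alone. Its exons share 15.2% of their bases with other genes of the same strand and 19.8% with genes of the opposite strand.

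Of complex V, ATPsyndelta had 209 and 305 in the cellular blastoderm inputs and 75.2 and 85.1 in those of NC 9-10, a difference of 1.64 ± 0.41 (SE; limma adjusted p = 0.00555). Its 7 inputs, from NC 7-9 onward, read 67.8, then 75.2 and 85.1, then 103 and 164, then 209 and 305, so that no stage overlapped the next. ATPsynE, which encodes subunit e, named for the dimer-forming membrane part of the mammalian enzyme, stood at 698 and 1040 in cellular blastoderm inputs and 294 and 279 in NC 9-10 inputs (difference 1.57, limma adjusted p = 0.0223). ATPsynO, the link between the catalytic head and the outer stalk, had 270 and 327 against 83.0 and 99.9 (difference 1.70, limma adjusted p = 0.0308). Their calls were less firm. ATPsyndelta missed the threshold without the second cellular blastoderm input (limma adjusted p = 0.052). ATPsynE missed it without either NC 9-10 input (0.074 and 0.085) or without the second cellular blastoderm input (0.134), and ATPsynO missed it whichever library was left out (limma adjusted p = 0.074 to 0.126).

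The 3 members that fell in the inputs belong to complexes II and III. UQCR-C2, the second core protein of complex III (FBgn0250814, 3L:16584124-16586111, plus strand, 3 introns and 1686 exonic bases in the BDGP6.54 annotation), had 25.5 and 18.2 in the cellular blastoderm inputs, against 75.7 and 70.6 in the NC 9-10 inputs. The syncytial inputs were already low, at 15.8 and 17.5, and the NC 7-9 input stood at 99.0, so no input of NC 7-9 or NC 9-10 overlapped any of a blastoderm stage. The difference of cellular blastoderm from NC 9-10 was −1.71 ± 0.43 (SE; limma adjusted p = 0.00583) and was called whichever library was left out (adjusted p at most 0.049).

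SdhA, the flavoprotein of succinate dehydrogenase (FBgn0261439, on 2R), had 55.5 and 67.5 in cellular blastoderm inputs, against 141 and 142 at NC 9-10. The syncytial inputs, 105 and 116, lay between. The difference was −1.20 ± 0.22 (SE; limma adjusted p = 0.00074), while SdhB, its partner in the catalytic head, rose (197 and 234 against 125 and 109, difference 0.87, limma adjusted p = 0.0308). UQCR-6.4, a small subunit of complex III, had 12.3 and 16.7 at cellular blastoderm and 32.9 and 44.3 at NC 9-10, a difference of −1.36 (limma adjusted p = 0.0139). It missed the threshold without the second NC 9-10 input (−1.15, adjusted p = 0.093) or the first cellular blastoderm input (−1.15, adjusted p = 0.089). Of the exonic bases of UQCR-6.4, 40.5% lie opposite POSH, which fell in the same comparison (difference −3.09, limma adjusted p = 1.05e-05); whether reads were shared was not tested.

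**Figure D2:**
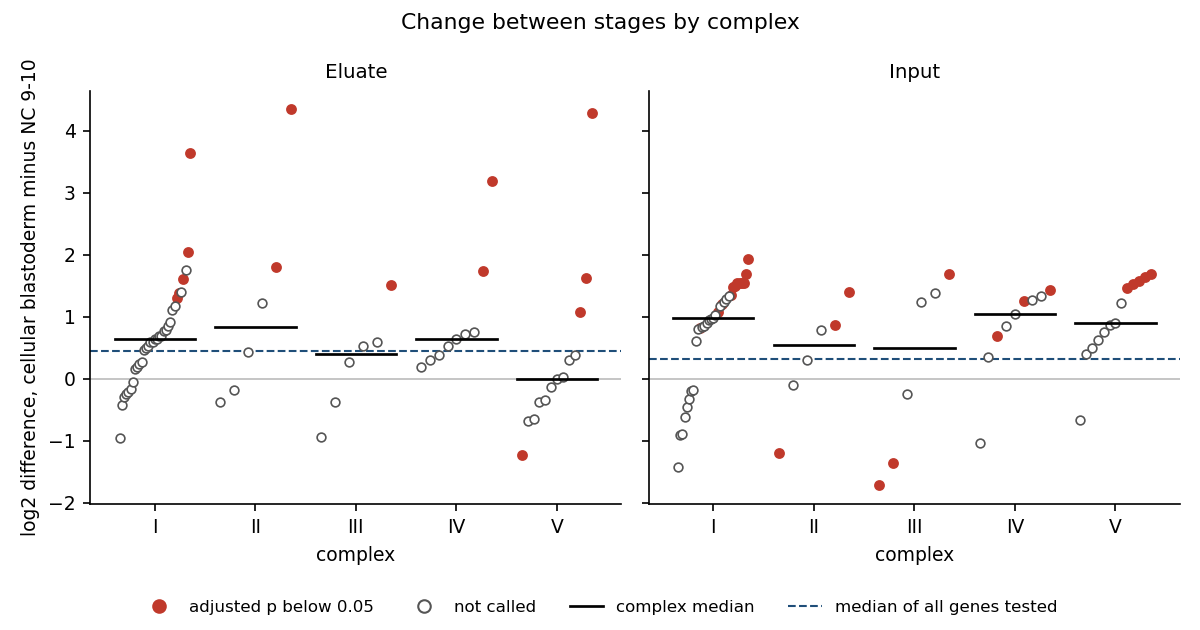
Difference in log2(level + 1) of cellular blastoderm against NC 9-10 for each member, by complex, in eluates and in inputs. Filled red points have a limma adjusted p below 0.05, open points do not, black lines are the medians of a complex, and the dashed blue lines the medians over all genes (0.45 in eluates, 0.31 in inputs); 23 input points are called higher and 3 lower. The 4 highest eluate points are SdhBL, ATPsynbetaL, ND-51L1 and COX5BL, listed at 0 in NC 9-10 eluates, whose plotted values depend on the pseudocount.

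Eluates were set against inputs to ask which RNAs were enriched in the labelled fraction. At cellular blastoderm 34 of 67 members were lower in eluates than in inputs, where 17.6% of all genes tested were called lower, and 7 were higher, where 38.6% were called higher. The median difference was −1.21 for the members and 0.55 over all genes. Of complex I, 14 of 33 fell and 1 rose, and of complex V 9 of 13 fell and 1 rose, with medians of −1.22 and −1.27. Of complex IV, 6 of 9 fell and 1 rose with a median of −1.34, and of complex III 3 of 6 fell and 1 rose with a median of −0.57. Complex II had 2 lower, 3 higher and a median of 0.52, which counts the low paralogs SdhAL and SdhBL. Its 4 widely detected genes had medians of −0.17 and −0.19 in the first and second preparations against their own inputs. Among the 60 widely detected members 34 were lower and 2 higher, UQCR-C2 and SdhA. The other 5 higher members are low paralogs, and 2 of them, COX5BL and SdhAL, reached the level for testing only with the cellular blastoderm eluates counted, so they had to differ and the count without them is 5. This comparison shares the cellular blastoderm inputs with the one between stages above.

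**Figure D3:**
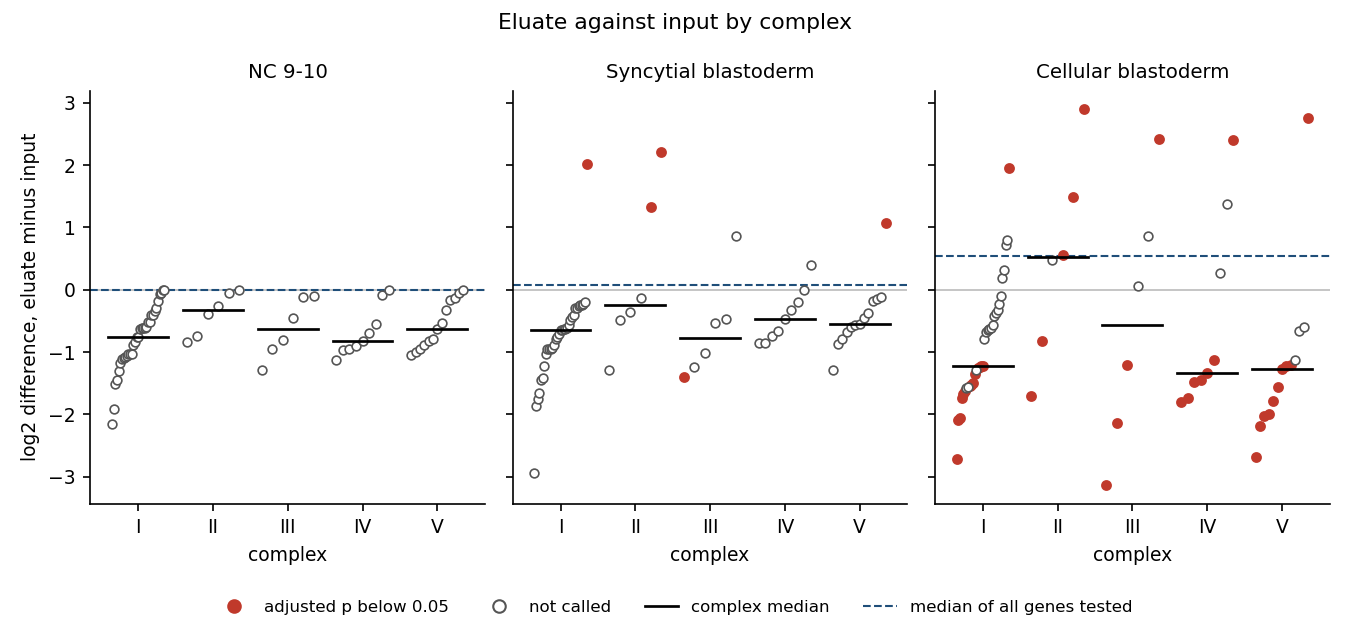
Difference in log2(level + 1) of eluate against input for each member, by complex, at NC 9-10, syncytial blastoderm and cellular blastoderm. Filled red points have a limma adjusted p below 0.05, black lines are the medians of a complex and dashed blue lines the medians over all genes; 0, 1 and 34 members are called lower at the successive stages.

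The count of 34 became 11 without the first cellular blastoderm eluate, 32 without the second, 30 without the first input and 11 without the second. In those fits the member median ran from −1.33 to −0.87, against −1.21 with all libraries. Scaled to the total alone, 36 members were lower and 6 higher, with an all-gene median of 0.44. As deposited, 59 were lower and 0 higher, with a member median of −3.90 beside an all-gene median of −1.91. With the preparation as a replicate block 41 were lower and 10 higher, among 2133 and 4043 of all genes.

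UQCR-11, a small subunit of complex III, had levels of 9.28 and 23.8 in the cellular blastoderm eluates, against 98.4 and 197 in the inputs. At NC 7-9 the eluate and the input were close, at 46.0 and 50.5, and at NC 9-10 the eluates held 48.7 and 17.9 and the inputs 48.0 and 71.2. The cellular blastoderm groups did not overlap and differed by −3.13 ± 0.73 (SE; limma adjusted p = 0.00344).

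ATPsynCF6 and ATPsynD, both of the outer stalk that holds the catalytic head of the ATP synthase still, showed the same direction. ATPsynCF6 had 88.3 and 217 in cellular blastoderm eluates and 722 and 1123 in inputs, a difference of −2.69 ± 0.51 (SE; limma adjusted p = 0.0011). ATPsynD had 60.2 and 134 in eluates and 342 and 499 in inputs, a difference of −2.19 (limma adjusted p = 0.00112). Neither gene's eluates overlapped its inputs, and both calls held whichever library was left out (adjusted p at most 0.015). The rotor gene ATPsynC, the most abundant member, had 1249 and 1452 in eluates and 2471 and 3977 in inputs (difference −1.22, limma adjusted p = 0.00637), although its NC 7-9 eluate, at 2455, was above the NC 7-9 input, at 2051.

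ND-MWFE had 43.6 and 71.0 in the cellular blastoderm eluates and 227 and 615 in the inputs, a difference of −2.72 ± 0.60 (SE; limma adjusted p = 0.00268). Its 7 eluates over all stages lay between 40.6 and 72.5. UQCR-Q, a small subunit of complex III, had 91.1 and 108 in eluates and 359 and 543 in inputs (difference −2.14, limma adjusted p = 0.00956), a call that was lost without the first eluate (adjusted p = 0.058) or the second input (0.072). ND-49, a core subunit near the site where mammalian complex I reduces ubiquinone, had 61.4 and 125 in eluates and 236 and 339 in inputs (difference −1.68, limma adjusted p = 0.00152). COX5A, the most abundant member of complex IV, had 257 and 359 in eluates and 729 and 950 in inputs (difference −1.45, limma adjusted p = 0.00427).

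UQCR-C2 went the other way. It had 112 and 127 in the cellular blastoderm eluates, against 25.5 and 18.2 in the inputs, or 120 ± 11.0 against 21.9 ± 5.15 (SD, n = 2 each). Both eluates were above every other poly(A) library, the next being the NC 7-9 input at 99.0. The difference was 2.41 ± 0.43 (SE; limma adjusted p = 0.000735), and without any 1 library it stayed between 2.18 and 2.65 with adjusted p at most 0.00968. As deposited, where eluates carry lower values throughout, it was −0.22 beside an all-gene median of −1.91. At the earlier stages its eluates read 73.1 at NC 7-9, 54.2 and 31.6 at NC 9-10, and 25.8 and 37.2 at syncytial blastoderm, so the NC 9-10 eluates lay below their inputs and the syncytial eluates above theirs.

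SdhA had 87.2 and 94.8 in the cellular blastoderm eluates and 55.5 and 67.5 in the inputs, a difference of 0.56 ± 0.22 (SE; limma adjusted p = 0.043), about the all-gene median of 0.55. Its iron-sulfur partner SdhB was lower in eluates (difference −0.82, limma adjusted p = 0.0349), as was the membrane anchor SdhD (difference −1.70, limma adjusted p = 0.00365).

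**Figure D4:**
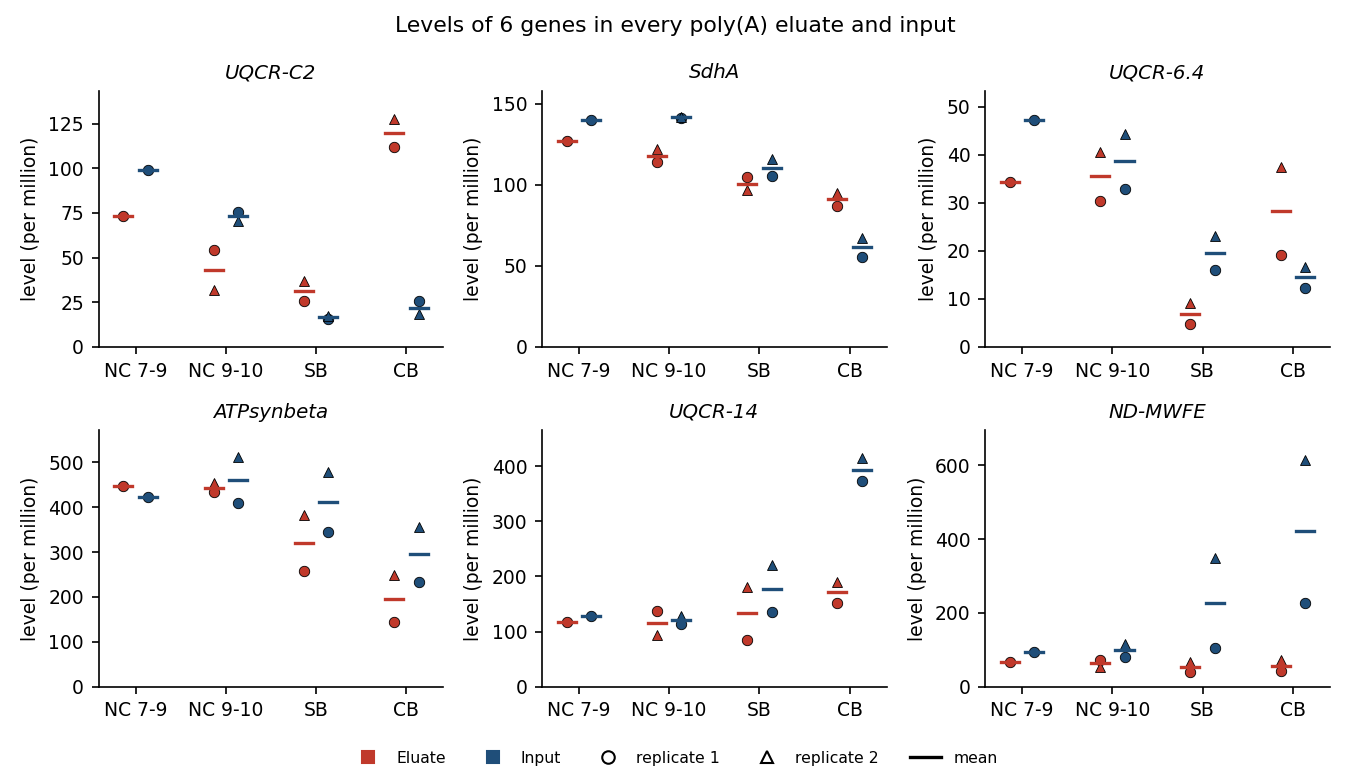
Level (scaled to 1000000 per library) of UQCR-C2, SdhA, UQCR-6.4, ATPsynbeta, UQCR-14 and ND-MWFE in each poly(A) eluate and input, by stage (SB, syncytial blastoderm; CB, cellular blastoderm); circles are first and triangles second preparations and bars are means. UQCR-C2 is highest in the cellular blastoderm eluates (112 and 127), whereas ND-MWFE is highest in the cellular blastoderm inputs (227 and 615).

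At syncytial blastoderm 4 members were higher in eluates, where 11.3% of all genes were called higher, and 1 was lower, where 0.708% were called lower. The member median was −0.60 and the all-gene median 0.08, with 60 members below 0. The 4 higher members were the low paralogs ATPsynbetaL, SdhAL, ND-51L1 and SdhBL, described below, and no widely detected member was called higher. SdhAL and SdhBL reached the level for testing only with eluates of the blastoderm stages counted. UQCR-6.4, the lower one, had 4.73 and 9.14 in eluates and 15.9 and 23.0 in inputs, with no overlap (difference −1.40 ± 0.40 SE, limma adjusted p = 0.0385). That call was lost without the first eluate (−0.99, adjusted p = 0.262), the first input (−1.65, adjusted p = 0.075) or the second input (−1.15, adjusted p = 0.284). Scaled to the total alone 4 members were higher and 7 lower, with an all-gene median of −0.29, and as deposited 0 were higher and 60 lower, with an all-gene median of −3.74. With the preparation as a replicate block 15 were lower, among 369 of all genes, of which 8 belong to complex I, 2 to complex III, 2 to complex IV and 3 to complex V. The 4 higher calls became 3 without either eluate, 2 without the first input and 1 without the second, and the 1 lower call became 0 without the first eluate or the second input and 6 without the second eluate.

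At NC 9-10 no member was called in either direction by limma, where 0% of all genes were called higher and 0% lower; without adjustment, 0 members were higher and 10 lower at p below 0.05. With the preparation as a replicate block 1 was lower (COX6B, −0.96, limma adjusted p = 0.0492), among 14 of all genes, and as deposited 60 were lower, with an all-gene median of −4.29. The member median was −0.70 and the all-gene median 0.00, and 62 of 67 lay below 0. The members nearest to their inputs or above were ND-SGDH (0.00), ATPsynbeta (−0.04) and ND-49 (−0.06), and those farthest below were ND-B15 (−2.16), ND-B14.5A (−1.91) and ND-B14.5B (−1.51), all accessory subunits of complex I. ND-B14.5A had 24.1 and 4.82 in eluates and 48.1 and 41.2 in inputs (limma adjusted p = 0.654), and the eluates of all 3 were far apart between preparations.

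The 2 NC 9-10 preparations differed as a whole. Against their own inputs the member medians were −0.30 in replicate 1 and −1.10 in replicate 2, while the all-gene median was 0 in both. The other poly(A) preparations had member medians of −0.37 at NC 7-9, −0.57 and −0.57 at syncytial blastoderm and −1.10 and −0.97 at cellular blastoderm, beside all-gene medians of 0, 0.02, 0.09, 0.56 and 0.50. The member median was below the all-gene median in 7 of 7 preparations.

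With all stages in 1 comparison, 31 of 67 members were lower in eluates, where 5.98% of all genes were called lower, and 3 were higher, where 10.6% were called higher. The medians were −0.68 for members and 0.17 for all genes. Of the 31, 17 belong to complex I, 1 to complex II, 2 to complex III, 4 to complex IV and 7 to complex V. Scaled to the total alone 45 were lower and 2 higher, with an all-gene median of 0.02, and as deposited 61 were lower and 0 higher, with an all-gene median of −3.42. With the preparation as a replicate block 42 were lower and 2 higher, among 684 and 955 of all genes. The count of 31 was 2 without the second syncytial input and 1 without the second cellular blastoderm input. It became 10 without the first syncytial eluate, 9 without the first and 7 without the second cellular blastoderm eluate, 16 without the NC 7-9 input, 17 and 8 without the first and second NC 9-10 inputs, 18 without the first syncytial input and 12 without the first cellular blastoderm input. Calls over all genes moved as well. Of all genes tested, 515 were lower with every library, 30 without the second syncytial input and 22 without the second cellular blastoderm input. The member median in these last 2 fits was −0.66 and −0.69. The 3 higher were SdhBL, ATPsynbetaL and SdhAL, of which SdhBL and SdhAL reached the level for testing only with eluates counted, which leaves 1. They became 1 without the NC 7-9 input or the first NC 9-10 input, and 0 without the second NC 9-10 input or any eluate or input of a blastoderm stage.

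ND-B14.5B, an accessory subunit of complex I, was the member of the lower set named here whose call held whichever library was left out. Its eluates read 62.9 at NC 7-9, 61.1 and 18.1 at NC 9-10, 29.5 and 93.5 at syncytial and 48.0 and 62.3 at cellular blastoderm, and its inputs 100, 91.5 and 103, 104 and 194, and 176 and 302. Every eluate was below the input of its own preparation, and the difference over stages was −1.52 (limma adjusted p = 0.0152). ND-MWFE (−1.56, limma adjusted p = 0.0202), ATPsynCF6 (−1.46, limma adjusted p = 0.02) and UQCR-11 (−1.54, limma adjusted p = 0.0338) were also lower. The calls of ND-MWFE and ATPsynCF6 were lost without the second syncytial input or the second cellular blastoderm input, and that of UQCR-11 in 7 of 14 fits that left out a library. ND-B15 had the lowest value, −2.01 (limma adjusted p = 0.041), but its eluates ran from 0 and 46.2 at syncytial blastoderm and 26.0 and 2.71 at NC 9-10 to 28.7 and 37.4 at cellular blastoderm, and its call was lost in 11 of 14 such fits. The lowest members of complexes II and IV were SdhD and COX7C (COX7C −1.07, limma adjusted p = 0.0371).

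Flow-throughs were also set against inputs over all stages. No member was called by limma, where 0% of all genes were called higher and 0% lower, and 2 members were higher and 0 lower by a p below 0.05 before adjustment. The member median was 0.02 beside an all-gene median of −0.04, and the members ran from −0.43 for UQCR-C2, −0.27 for ND-B18 and −0.19 for UQCR-C1 among those of sufficient level to 0.38 for ND-19, 0.40 for ND-15 and 0.68 for ND-MLRQ (limma adjusted p = 1 for each of the 6). UQCR-C2 had 5.81 and 12.9 in syncytial flow-throughs, against 15.8 and 17.5 in the inputs, and 8.80 and 21.9 in cellular blastoderm flow-throughs, against 25.5 and 18.2.

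Eluates of cellular blastoderm were also set against eluates of NC 9-10. As for inputs between these stages, no fit with the preparation as a replicate block was made, and p-values may be too small. Here 13 members rose, where 38.8% of all genes were called higher, and 1 fell, where 18% were called lower, with medians of 0.53 for members and 0.45 for all genes. By complex, 5 rose in I, 2 in II, 1 in III, 2 in IV and 3 in V. Those of complex II were the low paralogs SdhBL and SdhAL, and those of complex IV the low paralogs COX5BL and COX7AL. No widely detected gene of complex II or IV was called higher. The low paralogs ND-51L1 of complex I and ATPsynbetaL of complex V are also counted. Without COX5BL and SdhAL, which reached the level for testing only with the cellular blastoderm eluates counted, 11 rose. Scaled to the total alone 7 rose and 6 fell, with an all-gene median of −0.12, and as deposited 27 rose and 0 fell, with an all-gene median of 0.93. The 13 became 18 without the first NC 9-10 eluate, 6 without the second, 13 without the first cellular blastoderm eluate and 7 without the second. The 1 lower call became 3 without the second cellular blastoderm eluate and 0 without any of the others.

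The member that fell, ATPsynbeta, encodes the catalytic subunit of the ATP synthase (FBgn0010217, on chromosome 4). Its eluates read 143 and 250 at cellular blastoderm and 433 and 454 at NC 9-10, with no overlap, a difference of −1.22 ± 0.41 (SE; limma adjusted p = 0.0244). The call was lost without either NC 9-10 eluate (limma adjusted p = 0.069 and 0.088) or without the first cellular blastoderm eluate (0.189). In its inputs the levels were 233 and 357 at cellular blastoderm and 409 and 511 at NC 9-10. Among those that rose were UQCR-C2 (112 and 127 against 54.2 and 31.6, difference 1.50), the iron-sulfur subunit ND-23 of complex I (difference 1.61, limma adjusted p = 0.00316) and ND-PDSW, an accessory subunit of complex I (136 and 195 against 61.0 and 24.4, difference 2.04, limma adjusted p = 0.0217). The call of ND-PDSW was lost without the second NC 9-10 eluate (1.40, adjusted p = 0.172), without the second cellular blastoderm eluate (1.79, adjusted p = 0.109) and scaled to the total alone (1.41, adjusted p = 0.084).

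Among the 80 matching symbols were 16 pairs in which a symbol is that of another gene plus L, L1 or L2, as SdhBL beside SdhB. Of these 16 paralogs 6 are members, 10 stayed under the threshold and 5 were at 0 in every poly(A) library. Such duplicates of oxidative phosphorylation genes are known in the fly mainly for expression in the testis. SdhBL, ATPsynbetaL, ND-51L1, COX5BL, SdhAL and COX7AL were listed at 0 in both NC 9-10 eluates, so no fold is given against that stage. Reads that a paralog and its parent gene could share were not tested.

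SdhBL (FBgn0030975, X:18894446-18896581, plus strand) had eluate levels of 0 at NC 7-9 and NC 9-10, 4.59 and 3.96 at syncytial blastoderm and 21.9 and 17.0 at cellular blastoderm. Its inputs held at most 0.286 before cellular blastoderm, where they held 2.45 and 1.15. Both blastoderm stages had eluates above inputs without overlap, and the difference was 2.22 at syncytial (limma adjusted p = 0.0002) and 2.90 ± 0.27 SE at cellular blastoderm (limma adjusted p = 5.93e-05). Of the 5 libraries in which SdhBL reached the level for testing, 1 was not an eluate. The SE of SdhBL and the other low paralogs also draws on libraries at or near 0, where values could vary little. Their p-values may therefore be too small. About 246 and 226 reads lay behind the cellular blastoderm eluates and about 34.0 and 6.01 behind the inputs, by the estimate from steps.

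ATPsynbetaL (FBgn0036568, 3L:16097834-16100088, plus strand) had 2.54 and 2.02 in syncytial eluates, against 0.914 and 0.274 in inputs, and 15.9 and 21.7 in cellular blastoderm eluates, against 2.14 and 1.66 in inputs. At cellular blastoderm this was a difference of 2.76 ± 0.27 (SE; limma adjusted p = 5.93e-05), while the parent gene ATPsynbeta was not called (difference −0.60, limma adjusted p = 0.236), although it was called lower in eluates with the preparation as a replicate block (adjusted p = 0.00512) and as deposited (−3.29, adjusted p = 3.93e-06). Over all stages ATPsynbetaL differed by 1.11 (limma adjusted p = 0.0471; 0.056 with the preparation as a replicate block), a call lost in 11 of 14 fits that left out a library. ND-51L1, an intronless paralog of the flavoprotein gene ND-51 (FBgn0034251, on 2R), had 1.57 and 8.88 in syncytial eluates, against 0.232 and 0.260 in inputs, and 10.2 and 12.8 in cellular blastoderm eluates, against 1.84 and 2.63 in inputs. The differences were 2.02 ± 0.46 (SE; limma adjusted p = 0.011) and 1.95 ± 0.46 (SE; limma adjusted p = 0.00369), and the syncytial call was lost without either syncytial input (limma adjusted p = 0.07 and 0.065). ND-51 itself had 43.8 and 67.6 in cellular blastoderm eluates and 43.4 and 95.0 in inputs.

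COX5BL (FBgn0031831, 2L:6559431-6560133, plus strand), 122 bases beyond COX5B on the same strand, was at 0 in all eluates before cellular blastoderm, where it had 11.0 and 5.89, against 0.868 and 0.579 in inputs. These 2 eluates were the only libraries through which it reached the level for testing, so its difference of 2.40 is given without a test. All its exonic bases lie opposite Trmt6. COX5B differed in the other direction, with 92.8 and 121 in eluates and 231 and 314 in inputs (difference −1.34, limma adjusted p = 0.017). SdhAL, also intronless, had 1.46 and 3.90 in cellular blastoderm eluates and 0.131 and 0.350 in inputs, a difference of 1.49 that is likewise given without a test, since it never reached a level of 1 before rescaling in an input and did so in 1 library outside these eluates. COX7AL had 5.32 and 0.749 in eluates and 0 and 0.638 in inputs, so that its groups were close at the low end, and it was not called (difference 1.38, limma adjusted p = 0.0503, or 0.0312 with the preparation as a replicate block).

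The member just inside the threshold, ATPsynepsilonL, was at 0 in all 7 eluates and at most 1.53 in inputs. The gene just outside, ND-B8, an accessory subunit of complex I, reached 1.71 in 1 library and 0.893 in the next. ND-MNLL, at 0 throughout, shares all its exonic bases with CG45089 on the same strand.

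**Figure D5:**
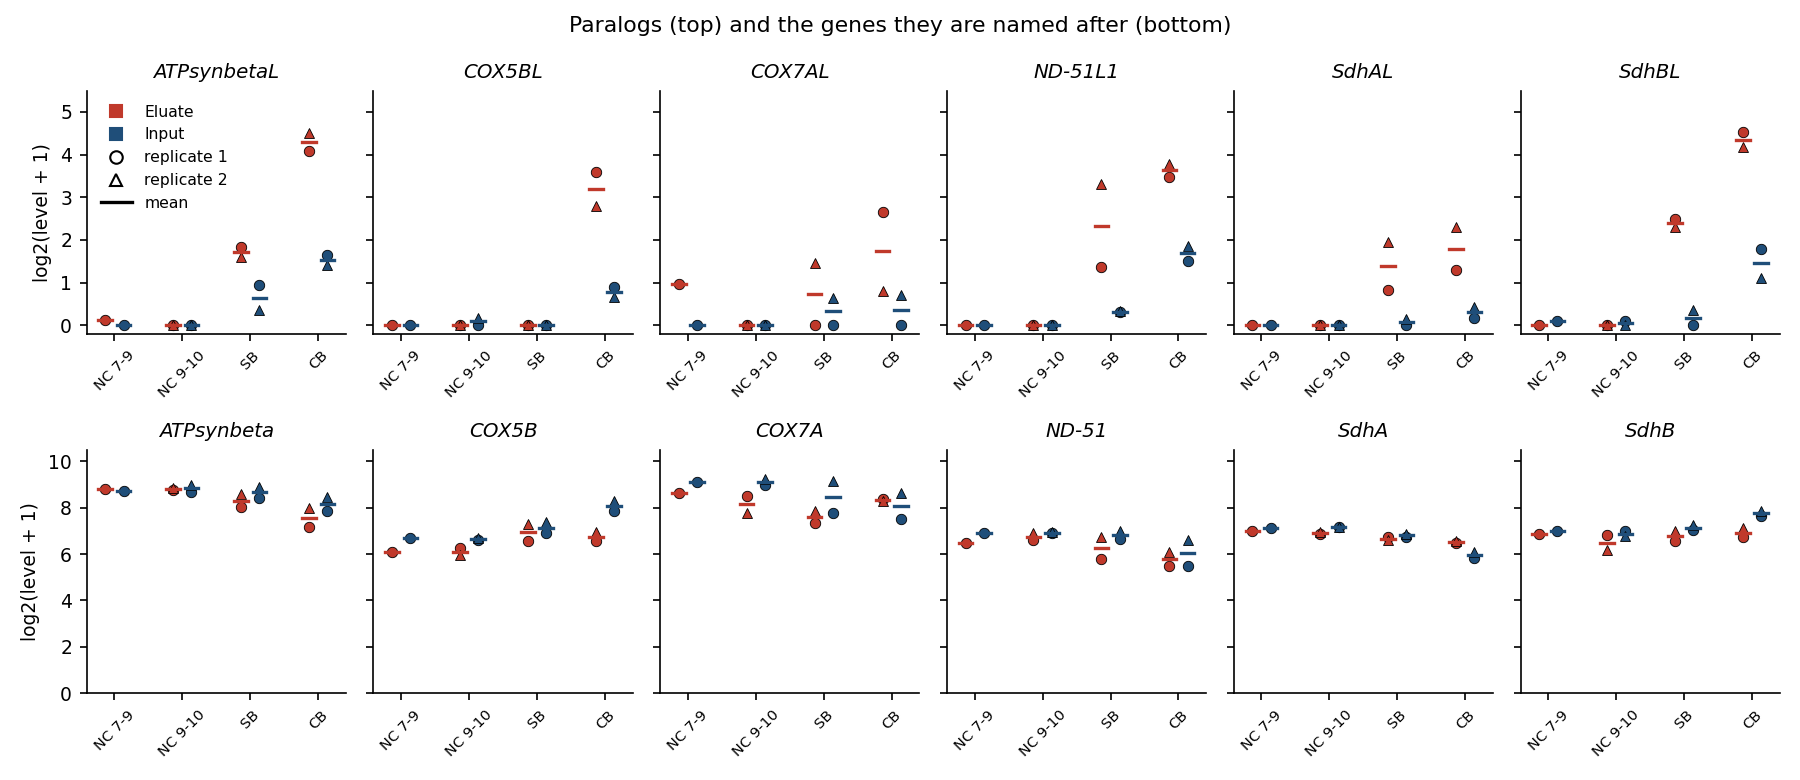
log2(level + 1) of 6 paralogs (top) and of the genes they are named after (bottom) in each poly(A) eluate and input, by stage (SB and CB, syncytial and cellular blastoderm); circles are first and triangles second preparations and bars are means. The 6 paralogs are at 0 in both NC 9-10 eluates, and SdhBL (21.9 and 17.0), ATPsynbetaL (15.9 and 21.7) and ND-51L1 (10.2 and 12.8) are highest in cellular blastoderm eluates.

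Whether the eluate-to-input difference itself changed between NC 9-10 and cellular blastoderm was tested as a contrast of all 4 groups. It was higher at cellular blastoderm for 7 members, where 27.1% of all genes were called higher, and lower for 1, where 8.62% were called lower. The member median was −0.33 and the all-gene median 0.56. The 7 were UQCR-C2 (3.22 ± 0.61 SE, limma adjusted p = 0.00369), ND-B16.6, an accessory subunit of complex I (1.63, limma adjusted p = 0.0345), and the paralogs SdhBL, ATPsynbetaL, COX5BL, ND-51L1 and SdhAL. The paralogs held at most 0.134 in any NC 9-10 eluate or input, and ATPsynbetaL, ND-51L1 and SdhAL were at 0 in all 4, so for these 5 the contrast restates the cellular blastoderm value and is no measured change in enrichment. ND-B16.6 had 107 and 129 in cellular blastoderm eluates beside inputs of 55.0 and 82.1, and 59.0 and 37.4 in NC 9-10 eluates beside inputs of 80.1 and 89.3. The 1 lower was ND-49 (−1.62, limma adjusted p = 0.0217), whose NC 9-10 eluates (118 and 118) stood beside inputs of 102 and 147. All 11 widely detected genes of complex V lay below 0, with a median of −1.08, and limma called none, although 3 had a p below 0.05 before adjustment.

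With the preparation as a replicate block the same contrast was higher for 12 members and lower for 19, among 3305 and 1586 of all genes. The 19 comprised 7 of 13 genes of complex V, 7 of 33 of complex I, 2 of complex III, 2 of complex IV and 1 of complex II. Lower in that fit were UQCR-11 (−2.18, limma adjusted p = 0.00536), ATPsynCF6 (−1.80, limma adjusted p = 0.00286) and ATPsynD (−1.55, limma adjusted p = 0.00259), with the rotor gene ATPsynC and the catalytic gene ATPsynbeta also among the 7 of complex V. Scaled to the total alone 5 were higher and 2 lower, and as deposited 20 were higher and 0 lower, with all-gene medians of 0.49 and 1.62. The 7 higher calls became 4 without the second NC 9-10 eluate, either NC 9-10 input or the first cellular blastoderm input, 6 without the first NC 9-10 eluate and 5 without any of the other 3 libraries. The 1 lower call became 4 without the second cellular blastoderm eluate, 3 without the first cellular blastoderm input, and 0 without the first cellular blastoderm eluate, the first NC 9-10 input or the second cellular blastoderm input. ND-49 missed the threshold without the second NC 9-10 eluate (limma adjusted p = 0.052), the first cellular blastoderm eluate (0.08), the first NC 9-10 input (0.082) or the second cellular blastoderm input (0.084), and ND-51L1 whichever library was left out (limma adjusted p = 0.06 to 0.091).

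In the rRNA-depleted set, the eluate shares of the members were 1.15% at NC 7-9, 0.716% at NC 9-10, 0.571% at syncytial and 0.537% at cellular blastoderm, and the input shares 1.46%, 1.40%, 1.28% and 1.37%. Each eluate was below each input. Over the 4 stages no member of the 66 tested was called by limma, where 0% of all genes were called higher and 0% lower. In this fit, changes of the fraction difference between stages count as spread. By a p below 0.05 before adjustment, 1 member was higher and 16 were lower, and as deposited 0 were higher and 61 lower, with an all-gene median of −5.22. The member median was −0.40 beside 0.05 over all genes. The lowest was ATPsynD (−1.87, limma adjusted p = 0.361), with eluates of 139, 129, 33.2 and 24.1 from NC 7-9 to cellular blastoderm. Its inputs were 143, 249, 309 and 247 and its flow-throughs 167, 164, 186 and 336. Eluate and input were close at NC 7-9 and apart later. The NC 9-10 and syncytial inputs, however, also stood above the flow-throughs of their own preparations. ATPsynCF6 (−1.61) and ND-B12 (−1.21) followed. ATPsynCF6 had eluates of 127, 140, 95.9 and 33.4, inputs of 176, 301, 428 and 224 and flow-throughs of 166, 172, 186 and 284. Its NC 9-10 and syncytial inputs were again far above the flow-throughs. Other members showed such offsets in both directions. At these stages ND-B16.6 had inputs of 102 and 78.1 and flow-throughs of 22.9 and 13.8. UQCR-11 had inputs of 49.4 and 50.8 and flow-throughs of 93.5 and 94.7. The eluate-to-input differences and medians of this set include these offsets, and their cause was not tested. UQCR-C2 had eluates of 93.0, 67.9, 33.6 and 168 and inputs of 138, 92.0, 19.7 and 40.4, below input at both early stages and above it at both later ones. The highest were the paralogs SdhBL (2.13), SdhAL (1.55) and ND-51L1 (1.46). All 3 reached the level for testing only with eluates counted, so these differences are given without a test; SdhBL was also the 1 member higher before adjustment. SdhBL had 0, 3.48, 12.9 and 24.4 in eluates and 0, 0, 0.0953 and 2.99 in inputs, and ND-51L1 had 0, 0, 13.0 and 26.1 in eluates and 0, 0, 0.260 and 4.25 in inputs.

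At NC 7-9 each set had 1 library per fraction and no test was made. Among members with a level of 5 or more in either fraction, in the poly(A) set ND-B12 (35.5 in eluate, 75.5 in input) and COX7C (34.0 and 65.5) were lowest relative to input, at −1.07 and −0.93, and ND-MLRQ (253 and 202) and ATPsynC (2455 and 2051) highest, at 0.33 and 0.26. In the rRNA-depleted set ND-B14.5A (−1.16) and COX8 (−1.14) were lowest, and ND-AGGG (22.3 and 10.8) and SdhC (34.0 and 23.4) highest, at 0.98 and 0.52. COX7C and ND-B12, lowest in the poly(A) set, stood at −1.06 and −0.99 in the rRNA-depleted set, and ND-MLRQ and ATPsynC, highest in the poly(A) set, at 0.00 and 0.10. In the poly(A) set ND-B14.5A and COX8 stood at −0.56 and −0.68, and ND-AGGG and SdhC at −0.36 and −0.76, the opposite sign from the rRNA-depleted set.

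The first and second preparations of the blastoderm stages, made with 250 and 50 mM 5-EU, differed in these genes in every fraction. Of the 60 widely detected members, 55 read lower in the first syncytial eluate than in its counterpart, as did 59 in the flow-throughs and 59 in the inputs, with median differences of −0.63, −1.04 and −0.55. At cellular blastoderm the counts were 55 in eluates, 59 in flow-throughs and 57 in inputs, with medians of −0.50, −0.61 and −0.53, beside all-gene medians between −0.21 and 0 at these stages. Over all genes tested, 48.3% to 65.4% read lower in the first preparation of these pairs. At NC 9-10, where both preparations had 250 mM, 9 were lower in the first eluate, 35 in the first flow-through and 42 in the first input, with medians of 0.70, −0.04 and −0.14. Dose and preparation cannot be told apart.

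Related genes outside the symbol rule were counted from lists. Of 8 tested subunits under other symbols, 6 were lower in eluates than inputs at cellular blastoderm and none higher, with a median of −1.76, among them the cytochrome c gene Cyt-c-p and the complex III genes Cyt-c1 and RFeSP. Of the 8, 3 (Cyt-c-p, Cyt-c1 and RFeSP) rose in inputs between NC 9-10 and cellular blastoderm. The 13 mitochondrially encoded subunits lay on the other side. All were above 0 in eluate against input at NC 9-10, syncytial and cellular blastoderm, with medians of 1.91, 2.44 and 1.18. Of them 0, 8 and 2 were called higher by limma, and at NC 9-10, 10 had a p below 0.05 before adjustment. Single preparations did not all share this direction. In the second NC 9-10 preparation, eluates were below inputs for mt:ND3 (343 against 529), mt:ND6 (187 against 363) and mt:ATPase8 (2133 against 6959). The same held for mt:ATPase8 in the second cellular blastoderm preparation (10808 against 11985). Of 11 citric acid cycle genes, 7 were lower in cellular blastoderm eluates than in inputs and 0 higher, with a median of −1.37. Of 7 assembly factors, 3 were higher and 1 lower, and of 9 genes for upkeep and expression of mitochondrial DNA, 3 were higher and 1 lower, beside 38.6% of all genes called higher and 17.6% lower. Of 86 cytoplasmic ribosomal protein genes, 81 were lower and 0 higher in cellular blastoderm eluates (median −2.04), and 57 rose and 0 fell in inputs between NC 9-10 and cellular blastoderm (median 1.35). Of 73 mitochondrial ribosomal protein genes, 16 were higher and 15 lower in cellular blastoderm eluates (median −0.13).

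Exonic length moved with the eluate values. Over all stages, the 39 widely detected members with less than 1000 exonic bases had a median difference of −0.91 and the 21 longer ones −0.51, beside −0.04 for the 1599 genes of less than 1000 bases among all genes tested. Across the 60 genes Spearman's rho between exonic length and the eluate-to-input difference was 0.37 and Pearson's r 0.41, and across 8571 genes they were 0.23 and 0.19. Genes are not independent replicates, all values come from the same libraries, and the part of length in the results was not tested.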

How the data were processed

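The 21 poly(A) and 12 rRNA-depleted libraries were prepared with a SMARTer Stranded kit, according to the labels. RPKM values per gene are what the authors deposited. STAR, HTSeq and dm6 are named per the submitters' processing notes. Versions and scaling factors were not given in the sources used here. The deposited RPKM values carry an added 1, and 69.9% to 88.6% of low values fall on whole multiples of a step per library (tolerance 0.02), which gave estimated reads, in units of 1000000, of 1.93 to 36.9 (poly(A)) and 2.14 to 34.3 (rRNA-depleted); column totals were 1.30 to 3.75 such units in poly(A) eluates and 14.9 to 33.2 in inputs.

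The 1 was removed, libraries were scaled to 1000000 and by the median of ratios, and genes reaching 1 in at least 2 libraries were tested (8618 and 8034 of 16407) as log2(level + 1) with limma 3.58.1 (R 4.3.3; Python 3.11.15 for tables), in 1 fit of all 21 poly(A) libraries with a mean per stage and fraction (terms for stage and fraction where all stages were compared), adjusted by Benjamini-Hochberg. The fold on this scale understates changes of low genes. The fit was tested on simulated data with noise drawn independently for each library. It found 32%, 22% and 24% of log2 shifts of 1 in eluate against input at NC 9-10, syncytial and cellular blastoderm. The share was 68% over all stages, 10% in the rRNA-depleted set and 4% for the difference in enrichment. The BDGP6.54 annotation held 16330 of 16407 symbols.

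Titles tie eluate, flow-through and input to 1 preparation. The deviations of these fractions from group means correlated (r = 0.513 to 0.929 across genes), so the preparation was also fitted as a block. No block fit was made for the comparisons of inputs or of eluates between stages. For these comparisons the spread was estimated as if the fractions of a preparation were independent, so their p-values may be too small. Other alternatives were a pseudocount of 0.25, no filter, the total alone, values as deposited and leaving out each library. Members and lists were chosen with earlier results of these data known. Named genes were, per comparison, up to 5 called members per direction with a level of 5 or more (or the 3 farthest from 0 where none was called), the 2 highest and the extreme members of each complex, threshold neighbours and paralog pairs. Named after their values were seen were ND-B16.6, ND-23, the lowest member of each complex by input level, related and overlapping genes outside the members, and any named gene in a comparison for which the rule had not picked it (such as ND-49, COX5A, COX6B, SdhA, SdhB, SdhD, UQCR-C2, ATPsynC and ATPsynbeta). No sequence was used.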

Additional observations from a re-analysis of the deposited data

Results flagged for a closer look

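The contrast of the eluate-to-input difference at cellular blastoderm with that at NC 9-10 was called for 8 members (limma, all 4 groups in 1 contrast, adjusted p below 0.05), of which 3 were detected in both fractions of both stages. UQCR-C2 had the largest difference, 3.22 on the log2 scale (adjusted p = 0.00369), going with higher eluates (120 at cellular blastoderm, 42.9 at NC 9-10) and lower inputs (21.9 at cellular blastoderm, 73.1 at NC 9-10). ND-B16.6 differed by 1.63 and ND-49 by −1.62. The paralogs SdhBL (2.94), ATPsynbetaL (2.76), COX5BL (2.50), ND-51L1 (1.95) and SdhAL (1.49) were listed at 0 in both NC 9-10 eluates and at most 0.134 in the NC 9-10 inputs, so their values restate the cellular blastoderm difference, depend on the pseudocount and show no measured change in enrichment. COX5BL and SdhAL also reached the level for testing only with the cellular blastoderm eluates counted. The cause of these differences was not tested.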

How the results depend on the processing

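All counts are of members called by limma. With values as deposited, whose column totals are lower in eluates, members lower in eluate against input numbered 60 at NC 9-10, 60 at syncytial and 59 at cellular blastoderm, 61 with all stages together and 61 among rRNA-depleted libraries, and those higher numbered 0 at each of these. Most genes were called lower there as well: 6785, 6340, 4371 and 6890 of 8618 in the poly(A) comparisons, in the same order, and 6941 of 8034 in the rRNA-depleted set. On the same values 5 rose and 14 fell in inputs between NC 9-10 and cellular blastoderm, 27 rose and 0 fell in eluates, and 20 were higher and 0 lower in the difference in enrichment. Over all genes these were 1171 and 2791 in inputs, 2990 and 690 in eluates, and 2578 and 0 in the difference in enrichment. On these values 5 gene results changed sign: UQCR-C2 at cellular blastoderm (−0.22), ND-51L1 at cellular blastoderm (−0.30) and in the difference in enrichment (−0.30), ATPsynbetaL over all stages (−0.23) and ND-49 in the difference in enrichment (0.12). Scaled to the total alone, 7 were lower at syncytial blastoderm, 7 rose and 9 fell in inputs, 7 rose and 6 fell in eluates, and 2 were lower in the difference in enrichment. With the preparation as a replicate block, 1 was lower at NC 9-10 and 15 at syncytial blastoderm. In the difference in enrichment 12 were higher and 19 lower with the block. No other count fitted with the block moved by over 1.5 times. The counts in inputs and in eluates between stages were not fitted with it. Of single genes, the block ended the call of ATPsynbetaL over all stages (adjusted p = 0.056). With a pseudocount of 0.25, 1 was higher over all stages. With no filter, 0 were lower at syncytial blastoderm, and over all stages 0 were higher and 11 lower. Leaving out 1 library at a time, the counts ran from 1 to 3 higher and 0 to 6 lower at syncytial blastoderm, 11 to 32 lower at cellular blastoderm, 0 to 4 higher and 1 to 39 lower over all stages, 6 to 19 higher in inputs, 6 to 18 higher and 0 to 3 lower in eluates, 4 to 6 higher and 0 to 4 lower in the difference in enrichment, and 0 to 1 higher in the rRNA-depleted set. Of 250 single-gene values recomputed without 1 library, 172 kept direction and call and 78 kept direction alone. The cause of these moves was not tested. Estimated reads of a few per library limit the low paralogs most, and 2 preparations per stage limit every comparison of stages.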
